A study of Mus musculus with 6 samples.

Results

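The 32 genes described here encode the enzymes that add acetyl groups to histones, the enzymes that remove them, proteins that read the mark and the corepressor scaffolds that carry the deacetylases. They were chosen by gene symbol among the 55401 gene IDs of the count tables, and each symbol matched an ID. Polyadenylated RNA came from primary cholangiocytes, the epithelial cells of the bile ducts, of PLD mice (the label for polycystic liver disease) and of WT mice. All animals of both groups had received tamoxifen 3 months earlier, and each group held 3 libraries. After collagenase digestion of the liver, biliary cells were pulled out with magnetic beads that carried an antibody to EpCAM, a surface protein of epithelial cells. The labels name neither the allele behind PLD nor the driver of recombination, nor the strain, sex or age of the mice. Nothing in the labels ties each library to its own animal, and the p-values therefore reflect the spread of these libraries, which could be technical.

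Lysine acetyltransferases move the acetyl group of acetyl-CoA onto histone tails, which loosens nucleosomes and marks active promoters and enhancers. The enzymes that take it off again are found among the zinc-dependent deacetylases (classes I, IIa, IIb and IV) and the NAD-dependent sirtuins. Bromodomain proteins bind the acetylated lysine. Most class I enzymes work inside corepressor complexes, whereas class IIa enzymes shuttle between nucleus and cytoplasm and bind MEF2 transcription factors. In polycystic liver disease the tubulin deacetylase Hdac6 is best known, from work on rat and human cholangiocytes, for its role in the loss of primary cilia, and Sirt1 is known from mouse kidney cysts.

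Depth was close to even, with 15768561 to 16710548 counted reads per library, and 3 reads correspond to 0.180 to 0.190 CPM (read counts scaled by library total) on the unadjusted totals. All other CPM values are TMM-normalised, which shifts this floor slightly in each library. The cholangiocyte label was checked against 20 markers. Their summed level was 35641 to 49182 CPM in PLD and 10267 to 14868 CPM in WT, and 18 of the 20 were higher in PLD. Other cells were also represented. The 23 endothelial markers summed to 745 to 1317 CPM in PLD and 9873 to 12439 CPM in WT, and all 23 were lower in PLD. Of 20 fibroblast and smooth muscle markers 16 were lower and 1 was higher in PLD, with sums of 2111 to 5419 CPM in PLD and 10068 to 15412 CPM in WT. Macrophage markers summed to 1448 to 1958 CPM in PLD and 1166 to 1487 CPM in WT. Of these 14 markers 3 were higher and 2 lower in PLD, with a median log2 fold change of -0.14. Cd14, which rose, had 696 to 973 CPM in PLD and 233 to 316 CPM in WT. Mrc1, which fell, had 40.6 to 49.5 CPM in PLD and 312 to 498 CPM in WT. Lymphocyte and neural or glial markers summed to at most 85.8 CPM in any library. Hepatocyte markers summed to 2333 to 6956 CPM in PLD and 1408 to 2522 CPM in WT, but of the 15 measured 3 were higher and 7 lower in PLD, with a median log2 fold change of -0.66. Alb, which did not pass, made up most of these sums, with 1303 to 5512 CPM in PLD and 1085 to 1888 CPM in WT. No marker was at 0 reads in either group. A lower value can thus stand for fewer cells of a type or for less RNA per cell, and the 2 cannot be told apart in these bulk libraries.

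Most of the histone acetylation genes differed little between the PLD and WT libraries, which also differed in the marker levels of other cell types. In the quasi-likelihood test of edgeR, adjusted by the Benjamini-Hochberg method over 15334 genes, 7 of the 32 rose in PLD, 7 fell and 18 did not pass. That is 43.8% of the 32 genes, while 55.4% of all genes tested passed, 27.0% higher and 28.4% lower. The genes that rose were Kat5, Kat7, Hdac3, Hdac4, Hdac11, Sirt6 and Sirt7, and those that fell were Kat2a, Hdac1, Hdac7, Hdac9, Hdac10, Ncor1 and Sin3a. Hdac9 alone changed by at least 2-fold and fell, 1 of 32 genes, while 27.3% of all genes did so with an adjusted p under 0.05, 9.21% higher and 18.1% lower. The median log2 fold change of the 32 was -0.09, with quartiles of -0.25 and 0.20, beside a median of 0.01 and quartiles of -0.68 and 0.50 over all genes tested. All 32 passed the filter on low counts. At a mean log2 CPM of at least 4, 11 of 26 members passed, beside 61.9% of 8487 genes, and 0 changed by at least 2-fold, beside 21.8%.

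Read library by library, PLD values lay above all WT values for 8 of the 32 genes and below all of them for 10, and the groups overlapped for 14. Over all genes tested, 33.0% lay above and 33.2% below. For each of the 18 genes that did not pass, the 95% interval of the fold change lay within 2-fold in either direction, and for 14 of them within 1.5-fold. With 1 library left out, 3 to 6 of the 32 rose and 4 to 7 fell. The count that rose was 4 without PLD replicate 2 or WT replicate 2 and 3 without WT replicate 1 or 3, and the count that fell was 4 without PLD replicate 3, WT replicate 2 or WT replicate 3.

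**Figure D1:**
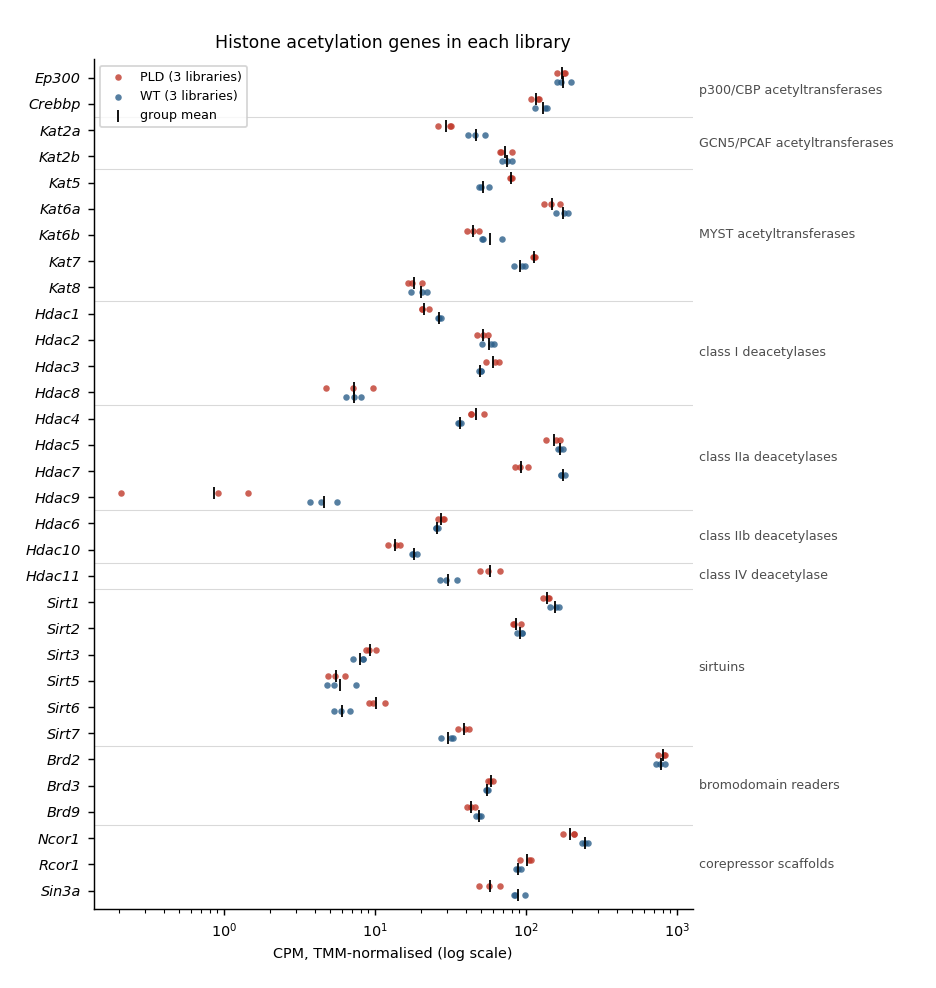
Level of each of the 32 genes in CPM (TMM-normalised, log axis), 1 point per library, with PLD above WT in each pair of lines and a tick at each group mean. Hdac9 is the lowest gene, with PLD points at 0.207 to 1.44 CPM to the left of its WT points at 3.71 to 5.60 CPM, and Brd2 is the highest in both groups.

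**Figure D2:**
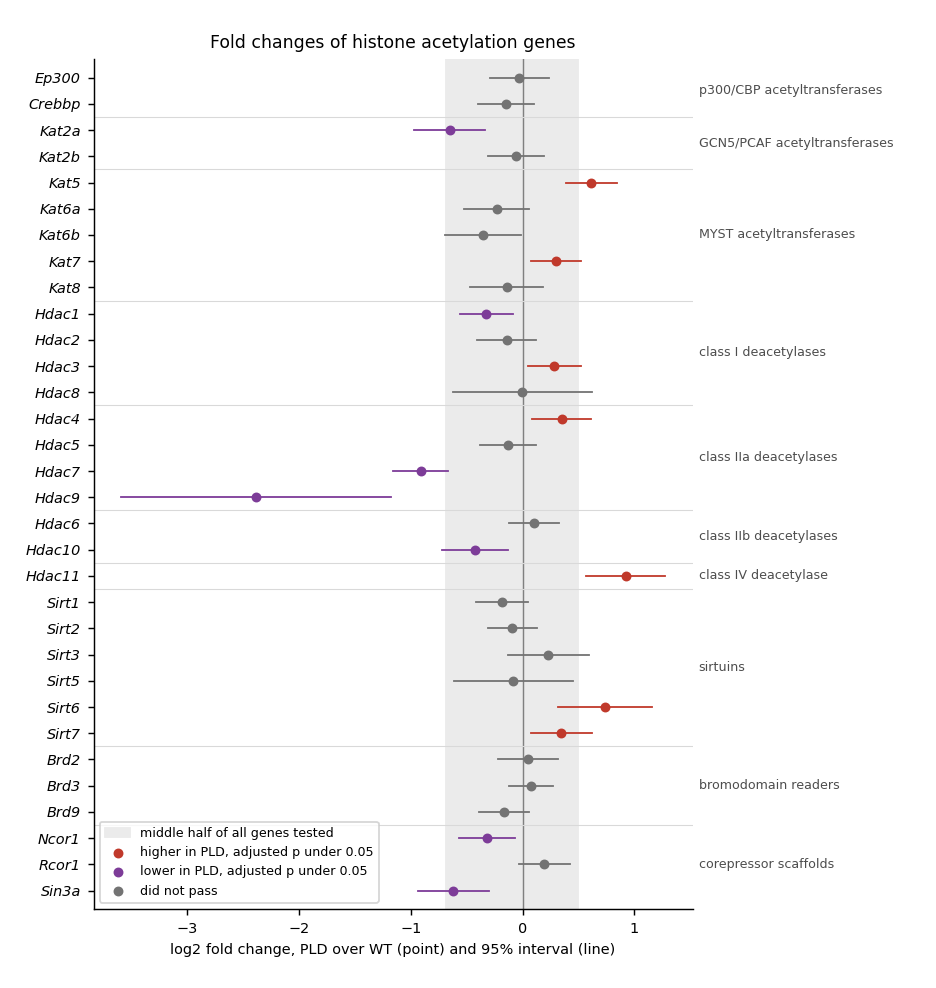
Log2 fold change of PLD over WT for each gene (point) with its 95% interval (line), coloured by whether the adjusted p was under 0.05. The grey band spans the quartiles of all genes tested, and the points of Hdac7 and Hdac9 lie below it and those of Kat5, Hdac11 and Sirt6 above it.

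The sequence just upstream of the deposited gene model is shown for 4 of the genes that passed. Candidates had at least 100 RefSeq promoter bases before the model, with no annotated exon in them, from the most upstream start. Among these the 2 largest falls were Hdac9 and Hdac7, and the 2 largest rises Hdac11 and Kat5. Sirt6, which rose more than Kat5 (log2 fold change 0.74 against 0.62), did not meet this rule. The sequences are from RefSeq on GRCm38.p6, the assembly also called mm10, 5′ to 3′ on the strand of the gene, and each ends at the base before the gene model. Capitals mark the GC box GGGCGG, searched on both strands, and the E-box CACGTG, which reads the same on both.
Hdac9 (chr12:34917096-34917295, minus strand): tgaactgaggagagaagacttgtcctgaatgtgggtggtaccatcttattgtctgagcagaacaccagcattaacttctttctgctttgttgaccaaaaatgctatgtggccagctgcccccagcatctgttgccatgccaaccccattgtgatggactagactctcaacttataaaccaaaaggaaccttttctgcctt
Hdac7 (chr15:97844503-97844702, minus strand): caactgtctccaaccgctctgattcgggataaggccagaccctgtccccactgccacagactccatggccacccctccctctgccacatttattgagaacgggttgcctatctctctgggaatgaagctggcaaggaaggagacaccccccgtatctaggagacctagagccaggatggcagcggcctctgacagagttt
Hdac11 (chr6:91156565-91156664, plus strand): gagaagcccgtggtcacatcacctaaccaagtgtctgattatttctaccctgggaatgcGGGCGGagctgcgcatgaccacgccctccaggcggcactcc
Kat5 (chr19:5610238-5610344, minus strand): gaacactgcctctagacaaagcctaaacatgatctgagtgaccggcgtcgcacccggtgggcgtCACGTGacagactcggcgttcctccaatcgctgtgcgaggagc

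The 4 upstream stretches differed in CpG content. The 200 bases before Hdac9 held 0 CpG and the 200 before Hdac7 held 5, while the 100 bases before Hdac11 held 6 and the 107 before Kat5 held 10. The median over 32851 RefSeq promoters was 6 CpG in the 250 bases before the RefSeq start, against 0 for Hdac9, 6 for Hdac7, 17 for Hdac11 and 15 for Kat5. For Hdac11 and Kat5 only 100 and 107 of these 250 bases lie before the deposited gene model, and the rest lie inside it. A GC box was found before Hdac11 and in 32.7% of all promoters, and the E-box before Kat5 and in 6.02% of them. Of the 32 genes 28 had an entry, with 43 promoters in all, of which 62.8% held a GC box and 4.65% an E-box. These matches describe letters in the window and no binding was measured.

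Among the acetyltransferases, Kat5 and Kat7 rose, Kat2a fell and 6 of 9 did not pass. The coactivators Ep300 and Crebbp, which acetylate histones at enhancers, did not pass. Ep300 (ENSMUSG00000055024.12, mm10 chromosome 15, 81585351 to 81652077, plus strand) had 179, 159 and 178 CPM in PLD, against 197, 161 and 169.9 CPM in WT. The groups overlapped (log2 fold change -0.03, standard error or SE 0.11, edgeR adjusted p = 0.837). For Crebbp the log2 fold change was -0.15 ± 0.11 (SE), with overlapping groups. The 95% intervals were -0.29 to 0.23 for Ep300 and -0.40 to 0.10 for Crebbp on the log2 scale. When a trend of the fold change with gene length was removed, Ep300 passed at 0.32 on the log2 scale (edgeR adjusted p = 0.0395), so its direction depends on that step.

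Kat2a and Kat2b, the catalytic subunits that exclude each other in SAGA and ATAC coactivator complexes, had different calls. Kat2b (ENSMUSG00000000708.14, mm10 chromosome 17, 53566861 to 53672720, plus strand) had 80.2, 67.9 and 67.3 CPM in PLD and 79.8, 69.3 and 74.8 CPM in WT. These values overlapped (log2 fold change -0.06 ± 0.11 SE, edgeR adjusted p = 0.678). Kat2a (ENSMUSG00000020918.14, chromosome 11), described here after its values were seen, had 25.8, 31.3 and 31.7 CPM in PLD and 41.1, 53.0 and 45.4 CPM in WT. Each PLD library lay below each WT library, and Kat2a fell by 0.65 ± 0.14 (SE) on the log2 scale (edgeR adjusted p = 0.00535).

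Kat5, the catalytic subunit of the TIP60 complex that also acts in the DNA damage response, was the acetyltransferase with the largest rise. It had 80.9, 79.1 and 78.2 CPM in PLD, against 50.2, 48.3 and 57.0 CPM in WT (ENSMUSG00000024926.10, mm10 chromosome 19, 5603014 to 5610237, minus strand). The lowest PLD library was well above the highest WT library, and the log2 fold change was 0.62 ± 0.10 (SE, edgeR adjusted p = 0.00146). Of its exonic bases 12.1% overlap Rnaseh2c on the opposite strand, which had 1533 reads over all libraries against 6366 for Kat5, and reads in the overlap cannot be assigned without a strand setting. Kat7, the HBO1 enzyme active at replication origins, rose by 0.30 ± 0.10 (SE). Its levels were 113 ± 1.7 CPM in PLD and 91.5 ± 7.8 CPM in WT (SD, n = 3 each), and the call was lost in 5 of 15 alternative settings. Kat6a, Kat6b and Kat8 did not pass, with log2 fold changes of -0.23, -0.36 and -0.14, and 4.22% of the exonic bases of Kat8 overlap Prss8 on the opposite strand. For Kat6b, with the longest exonic sequence of the set, the PLD libraries lay below the WT libraries, and the sign of its change turned to 0.05 with the length trend removed.

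The class I deacetylases went both ways by small amounts. Hdac3, the catalytic subunit of the NCoR and SMRT corepressor complexes (ENSMUSG00000024454.16), had 65.5, 61.6 and 53.9 CPM in PLD, against 48.4, 50.4 and 49.9 CPM in WT. The groups did not overlap, and Hdac3 rose by 0.28 ± 0.10 (SE) on the log2 scale (edgeR adjusted p = 0.0472). It was the least stable of the calls, lost in 10 of 15 alternative settings. Hdac1, which works in the Sin3, NuRD and CoREST complexes, fell by 0.32 ± 0.10 (SE, edgeR adjusted p = 0.0288), with 21.2 ± 1.3 CPM in PLD and 26.5 ± 0.56 CPM in WT (SD, n = 3 each). Its partner paralog Hdac2 was at 51.5 ± 4.4 CPM in PLD and 56.9 ± 5.4 CPM in WT, which overlapped (log2 fold change -0.14). Hdac8, which deacetylates cohesin, was low and variable, between 4.75 and 9.64 CPM in PLD and 6.37 and 8.02 CPM in WT, with a log2 fold change of 0.00 ± 0.27 (SE). The Hdac1 value is uncertain, because 35.5% of its 50-base exon words also occur in other genes.

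The class IIa deacetylases held the largest falls of the set. Hdac9, a MEF2-binding repressor of muscle genes, had 0.207, 0.915 and 1.44 CPM in PLD, against 5.60, 4.36 and 3.71 CPM in WT, from 3, 15 and 24 reads in PLD and 95, 74 and 60 reads in WT (ENSMUSG00000004698.11, mm10 chromosome 12, 34047580 to 34917095, minus strand). All PLD libraries lay below all WT libraries, and PLD replicate 1 was lowest. Hdac9 fell by 2.38 ± 0.52 (SE) on the log2 scale, which is 5.22-fold lower in PLD (edgeR adjusted p = 0.00628), and by 1.94 without PLD replicate 1 and 2.96 without PLD replicate 3. It was the least abundant of the 32 genes in both groups, so this change concerns few reads.

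Hdac7, an abundant class IIa enzyme known for its part in blood vessel integrity and thymocyte selection, fell in every PLD library. It had 84.2, 102.6 and 90.3 CPM in PLD, against 170.4, 169.6 and 181.6 CPM in WT (ENSMUSG00000022475.19, mm10 chromosome 15, 97792664 to 97844502, minus strand). The highest PLD library was far below the lowest WT library. The log2 fold change was -0.91 ± 0.11 (SE), or 1.88-fold lower in PLD (edgeR adjusted p = 3.95e-04), the smallest adjusted p among the 32 genes. Beside the falls of Hdac7 and Hdac9 stand the endothelial and the fibroblast and smooth muscle markers, whose medians were -3.33 and -1.80 on the log2 scale. The endothelial sums were 745, 1088 and 1317 CPM in PLD replicates 1 to 3, and 9873, 12301 and 12439 CPM in WT replicates 1 to 3. The fibroblast and smooth muscle sums were 2111, 4397 and 5419 CPM in PLD replicates 1 to 3, and 10068, 15412 and 13322 CPM in WT replicates 1 to 3. The part of those cells in the falls was not tested.

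Of the other class IIa members, Hdac4 rose and Hdac5 did not pass. Hdac4 rose by 0.35 ± 0.11 (SE, edgeR adjusted p = 0.0316), with 52.5, 43.0 and 42.8 CPM in PLD and 35.9, 37.1 and 35.5 CPM in WT. Its groups did not overlap, but the call was lost in 4 of 15 alternative settings. Over these settings its log2 fold change ran from 0.25 to 0.74, so its size depends on the processing. Of its 50-base words 21.6% are shared with other genes. Hdac5 had 135, 168 and 158 CPM in PLD and 168, 163 and 174 CPM in WT, which overlapped (log2 fold change -0.13 ± 0.11 SE).

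On the TPM scale, which corrects read counts for gene length and library total, Hdac7 made up 40.0% ± 0.90 of the class in PLD and 54.2% ± 0.47 in WT (SD, n = 3 each). Hdac5 made up 51.2% ± 1.6 in PLD and 40.4% ± 0.34 in WT, and Hdac4 8.63% ± 1.8 in PLD and 4.82% ± 0.25 in WT. The share of Hdac9 was 0.165% in PLD and 0.649% in WT. For each of these 4 genes the shares did not overlap between groups. That held for 21 of the 31 shares computed over all classes, beside 66.2% of all genes tested whose levels did not overlap. The 2 measures are unlike, because the shares of a class depend on each other. A smaller share of Hdac7 leaves larger shares for the other genes, and Hdac5 itself was at 59.8 ± 9.5 TPM in PLD and 77.8 ± 0.97 TPM in WT. The class as a whole summed to 117 ± 15.4 TPM in PLD and 193 ± 2.1 TPM in WT. This is a log2 ratio of -0.72, beside a shift of -0.24 for the median gene on the TPM scale, and it was -0.39 on the CPM scale.

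**Figure D3:**
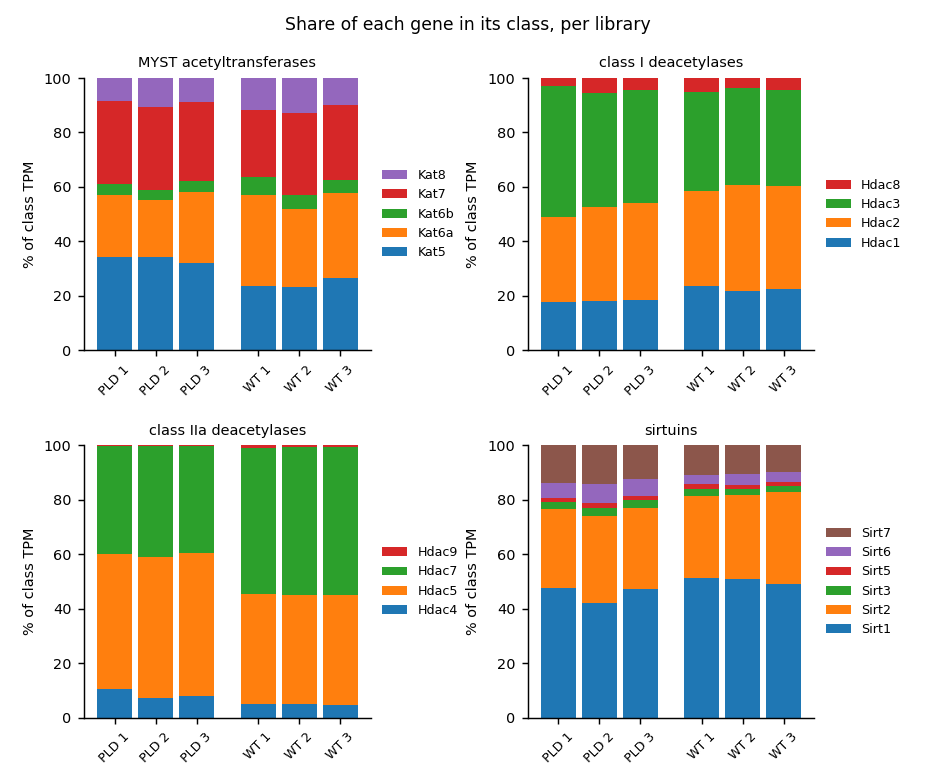
Share of each gene in the summed TPM of its class, 1 bar per library with the PLD bars left of the WT bars, for the MYST acetyltransferases, class I and class IIa deacetylases and sirtuins. In class IIa the Hdac7 segment falls between 39.2% and 41.0% in PLD libraries and between 53.7% and 54.6% in WT libraries, and in the MYST class the Kat5 segment is larger in PLD.

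In class IIb, Hdac10 fell and Hdac6 did not pass. Hdac10, a polyamine deacetylase (ENSMUSG00000062906.12, mm10 chromosome 15, 89123307 to 89128700, minus strand), had 14.7, 12.1 and 13.6 CPM in PLD, against 17.8, 18.8 and 17.6 CPM in WT. The groups were apart, and the log2 fold change was -0.42 ± 0.13 (SE, edgeR adjusted p = 0.0227), with the call lost in 5 of 15 alternative settings. Hdac6, the tubulin deacetylase, had 25.8, 27.9 and 28.4 CPM in PLD and 26.0, 25.3 and 25.2 CPM in WT. Only PLD replicate 1 overlapped the WT libraries, and the log2 fold change was 0.10 with a 95% interval of -0.12 to 0.33 (edgeR adjusted p = 0.394).

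Hdac11, the only class IV enzyme, which removes long fatty acyl groups from lysine as well as acetyl groups, had the largest rise. It had 49.7, 67.4 and 55.7 CPM in PLD, against 34.9, 26.9 and 29.3 CPM in WT (ENSMUSG00000034245.10, mm10 chromosome 6, 91156665 to 91174692, plus strand). The groups were well apart, with PLD replicate 2 highest. Hdac11 rose by 0.92 ± 0.15 (SE) on the log2 scale, or 1.90-fold (edgeR adjusted p = 0.00180), and it kept its call in all 15 alternative settings. Of its exonic bases 17.9% overlap other gene models, chiefly the antisense model Gm44002, which had 0 reads. Reads in the overlap cannot be assigned without a strand setting, so that count does not show whether Gm44002 is transcribed.

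Of the 6 sirtuins measured, Sirt6 and Sirt7 rose and Sirt1, Sirt2, Sirt3 and Sirt5 did not pass. Sirt1, the nuclear deacetylase of histones and many transcription factors, was the most abundant (ENSMUSG00000020063.16, mm10 chromosome 10, 63319005 to 63381704, minus strand). It had 142, 129 and 140.1 CPM in PLD, against 157, 165 and 143 CPM in WT. PLD values lay below WT values by a narrow gap, and the log2 fold change was -0.18 with a 95% interval of -0.41 to 0.05 (edgeR adjusted p = 0.157). Sirt2, mainly a cytoplasmic tubulin deacetylase, was at -0.09 ± 0.09 (SE).

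Sirt6, a chromatin-bound deacetylase of histone H3 that acts in DNA repair and the control of glycolysis, is described here after its values were seen. It had 9.02, 11.5 and 9.61 CPM in PLD, against 5.31, 6.84 and 5.93 CPM in WT (ENSMUSG00000034748.16, chromosome 10). The groups did not overlap, and Sirt6 rose by 0.74 ± 0.18 (SE, edgeR adjusted p = 0.0105). Sirt7, a nucleolar sirtuin that acts in ribosomal RNA transcription, rose by 0.34 ± 0.12 (SE), with 38.8 ± 3.1 CPM in PLD and 30.5 ± 2.9 CPM in WT (SD, n = 3 each), and lost the call in 6 of 15 alternative settings. The mitochondrial sirtuins Sirt3 and Sirt5 were below 11 CPM in every library, with log2 fold changes of 0.23 ± 0.16 and -0.08 ± 0.23 (SE). Sirt3 is uncertain, as 12.7% of its exonic bases overlap Ric8a and another model, and Ric8a had 5322 reads on the opposite strand against 840 for Sirt3.

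None of the 3 bromodomain readers passed. Brd2, which binds acetylated histone H4 and was the most abundant of the 32 genes (ENSMUSG00000024335.20, mm10 chromosome 17, 34112023 to 34122634, minus strand), had 751, 822 and 833 CPM in PLD and 769.8, 834 and 725 CPM in WT. The groups overlapped, with a log2 fold change of 0.05 and a 95% interval of -0.22 to 0.32 (edgeR adjusted p = 0.752). Its family member Brd3 was at 0.07 ± 0.09 and Brd9, a subunit of a BAF-type remodelling complex, at -0.17 ± 0.09 (log2 fold change and SE). Brd2 made up 87.9% ± 0.92 of the summed TPM of the 3 readers in PLD and 87.2% ± 0.67 in WT (SD, n = 3 each).

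Of the 3 corepressor scaffolds, Ncor1 and Sin3a fell and Rcor1 did not pass. Ncor1, which holds Hdac3 on nuclear receptors, had 206, 174 and 206 CPM in PLD, against 245, 232 and 254 CPM in WT (ENSMUSG00000018501.17, mm10 chromosome 11, 62316426 to 62458541, minus strand). The groups did not overlap and Ncor1 fell by 0.32 ± 0.11 (SE, edgeR adjusted p = 0.0376), but the call was lost in 7 of 15 alternative settings. Removing the trend on gene length left a log2 fold change of 0.00 for Ncor1 (edgeR adjusted p = 0.995). Sin3a, the scaffold of the Sin3 complex with Hdac1 and Hdac2 (ENSMUSG00000042557.14, chromosome 9), is described after its values were seen. It had 48.9, 56.8 and 66.7 CPM in PLD, against 82.9, 84.2 and 97.5 CPM in WT. It fell by 0.62 ± 0.14 (SE, edgeR adjusted p = 0.00630) and kept its call in all 15 alternative settings. Rcor1, the CoREST scaffold, had 101 ± 8.5 CPM in PLD and 88.5 ± 3.6 CPM in WT (SD, n = 3 each), which overlapped (log2 fold change 0.19 ± 0.10 SE), and it passed only with the length trend removed (log2 fold change 0.29, edgeR adjusted p = 0.0332).

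Ordered by mean TPM, Brd2 (349.7 TPM in PLD and 403 TPM in WT) and Sirt1 (87.4 TPM in PLD and 118 TPM in WT) led in both groups, and Hdac9 was last (0.202 TPM in PLD and 1.25 TPM in WT). The ranks in between shifted. Hdac7 had rank 13 in PLD with 46.7 ± 6.6 TPM and rank 3 in WT with 104 ± 2.0 TPM (SD, n = 3 each). Kat5 had rank 3 in PLD with 77.0 ± 3.5 TPM and rank 12 in WT with 59.8 ± 3.9 TPM. Neighbours in this order mostly lay within the spread between libraries, for example Hdac5 (59.8 ± 9.5 TPM), Sirt2 (58.1 ± 6.3 TPM) and Kat6a (54.2 ± 9.0 TPM) in PLD.

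Ratios of related genes within a library do not depend on its scaling, and 11 pairs were compared by exact two-sided permutation over the libraries. With 3 against 3 libraries the smallest possible p is 0.10, which is 0.22 when adjusted over the 11 pairs, so no pair could pass. For 5 pairs the groups did not overlap, the state of 66.2% of single genes. The Kat2b to Kat2a ratio per length was 2.22, 1.55 and 1.52 in PLD and 1.39, 0.935 and 1.18 in WT. The Hdac5 to Hdac4 ratio was 4.65, 7.03 and 6.64 in PLD and 8.43, 7.90 and 8.85 in WT. The Hdac10 to Hdac6 ratio per length was 0.978, 0.744 and 0.826 in PLD and 1.18, 1.28 and 1.20 in WT. Per length, Hdac10 was thus the lower of this pair in PLD, narrowly in replicate 1, and the higher in WT. In CPM it was the lower in both groups. The Hdac9 to Hdac7 and Sirt7 to Sirt6 ratios were also lower in PLD, by 1.88 and 0.39 on the log2 scale. For Ep300 to Crebbp, Kat6b to Kat6a, Hdac2 to Hdac1, Hdac8 to Hdac3, Sirt2 to Sirt1 and Brd3 to Brd2 the groups overlapped (exact permutation p between 0.2 and 0.8).

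Genes that work with these enzymes were read in the same fit, as 6 lists drawn up by biochemistry with earlier results of these data known. Their counts are to be read beside the 27.0% of all genes tested that rose and the 28.4% that fell, 55.4% together. Of 38 subunits of acetyltransferase complexes 8 rose and 6 fell (21.1% and 15.8%), with a median log2 fold change of 0.10. Sgf29 and Taf5l of the SAGA-type complexes rose by 0.82 ± 0.11 and 0.69 ± 0.10 (SE), and Yeats4, an acetyl-lysine reader of the TIP60 complex, by 0.90 ± 0.13. Sgf29 had 25.6, 27.9 and 23.6 CPM in PLD and 13.9, 14.8 and 14.8 CPM in WT. Jade2, a scaffold of the HBO1 complex of Kat7, fell by 1.24 ± 0.19 (SE), with 29.8, 26.4 and 28.0 CPM in PLD and 48.9, 84.0 and 65.4 CPM in WT. So the partners of Kat2a, Kat5 and Kat7 included genes that moved with them and against them.

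Of 36 tested subunits of deacetylase complexes 11 rose and 12 fell (30.6% and 33.3%), with a median of 0.07. Gatad2a of the NuRD complex and the demethylase Kdm1a of the CoREST complex rose by 0.69 ± 0.09 and 0.57 ± 0.09 (SE). Kdm1a had 125, 113 and 112 CPM in PLD and 76.2, 76.8 and 82.8 CPM in WT. Brms1l, a Sin3 complex subunit, and Phf21a, a CoREST complex subunit, fell by 1.18 ± 0.15 and 0.61 ± 0.10 (SE). Brms1l had 5.85, 7.14 and 6.06 CPM in PLD and 13.6, 15.3 and 14.5 CPM in WT.

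Other acetyl-lysine readers fell more than they rose, with 3 of 27 higher (11.1%), 11 lower (40.7%) and a median of -0.23. Baz1b, Trim24 and Brwd1 fell by 0.82 ± 0.11, 0.69 ± 0.09 and 0.72 ± 0.11 (SE), and Trim33 rose by 0.47 ± 0.09. Baz1b, part of the WICH remodelling complex, had 95.3, 107 and 119.7 CPM in PLD and 181, 199.9 and 189 CPM in WT. With the length trend removed the split was 5 higher and 3 lower, so the direction of this list depends on that step.

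The enzymes of acetyl-CoA and NAD supply had 6 of 22 genes higher (27.3%), 4 lower (18.2%) and a median of 0.08. The surface NAD hydrolase Cd38 fell by 2.98 ± 0.17 (SE), with 11.4, 10.9 and 15.4 CPM in PLD and 86.7, 103 and 108 CPM in WT (edgeR adjusted p = 3.75e-05). The part of other cell types in the fall of Cd38 was not tested. Naprt and Nmnat3, enzymes of NAD synthesis, rose by 1.18 ± 0.20 and 0.81 ± 0.20, and the mitochondrial citrate carrier Slc25a1 by 0.59 ± 0.09 (SE).

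Of 21 tested partners of the class IIa deacetylases, 7 rose and 9 fell (33.3% and 42.9%, beside 27.0% and 28.4% of all genes). Their median was -0.15. Of the 21, 5 fell by at least 2-fold, as did 18.1% of all genes tested. The transcription factor Mef2c had 9.51, 13.5 and 17.4 CPM in PLD, against 78.9, 61.9 and 76.5 CPM in WT, a fall of 2.43 ± 0.22 (SE, edgeR adjusted p = 1.49e-04). The kinases Prkd1 and Prkd2, which phosphorylate class IIa enzymes and drive them from the nucleus, fell by 3.02 ± 0.33 and 1.58 ± 0.15, and the chaperone Dnajb5 by 1.58 ± 0.14 (SE). The 7 that rose included 5 genes of the 14-3-3 family, which hold phosphorylated class IIa enzymes in the cytoplasm, led by Ywhaz at 1.00 on the log2 scale, and these were picked out after their values were seen. The endothelial sums given above, at most 1317 CPM in PLD and at least 9873 CPM in WT, moved with the falls of this list, and their part was not tested.

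Of 17 tested genes that recruit p300 and CBP or are further acetyltransferases, 1 rose and 7 fell (5.88% and 41.2%), with a median of -0.30. The transcription factor Ets1 had 121, 128 and 142 CPM in PLD and 386, 353 and 467 CPM in WT and fell by 1.63 ± 0.14 (SE). The endothelial sums given above were also lower in PLD, and their part in the fall of Ets1 was not tested. The coactivators Crtc3 and Ncoa2 fell by 0.54 ± 0.09 and 0.59 ± 0.10 (SE). The gene that rose was Hat1, which acetylates newly made histone H4, by 0.74 ± 0.10 (SE), with 54.6, 54.0 and 53.5 CPM in PLD and 30.6, 31.8 and 34.7 CPM in WT. With the length trend removed 2 rose and 4 fell.

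**Figure D4:**
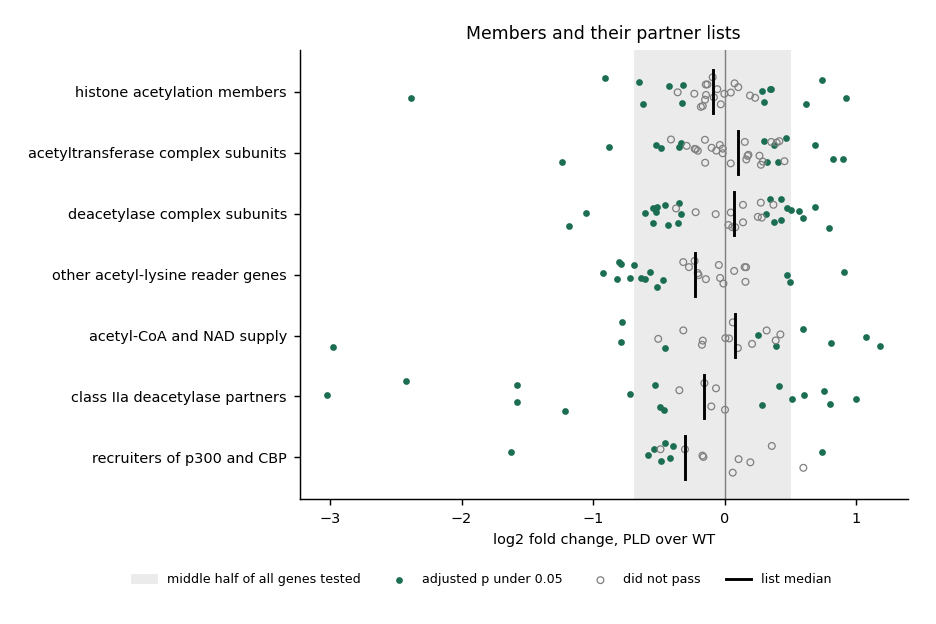
Log2 fold change of PLD over WT for the 32 genes and the 6 partner lists, 1 point per gene, filled where the adjusted p was under 0.05, with a bar at the list median. The grey band spans the quartiles of all genes tested; most points lie inside it, and the far left points belong to Hdac9, Cd38 and the class IIa partners Prkd1 and Mef2c.

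Longer genes had lower fold changes in these libraries as a whole. The median log2 fold change was 0.35 for 2427 genes with under 2 kb of exonic sequence and -0.37 for 822 genes over 12 kb. Of the 32 genes 6 were over 12 kb long, with a median of -0.23, and 0 were under 2 kb. Across 15 alternative tools, scalings, filters and left-out libraries, 7 of the 14 calls held throughout, those of Kat2a, Kat5, Hdac7, Hdac9, Hdac11, Sirt6 and Sin3a. The other 7 had log2 fold changes between -0.42 and 0.35 and lost the threshold in 4 to 10 settings, and 0 of the 14 changed direction.

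**Figure D5:**
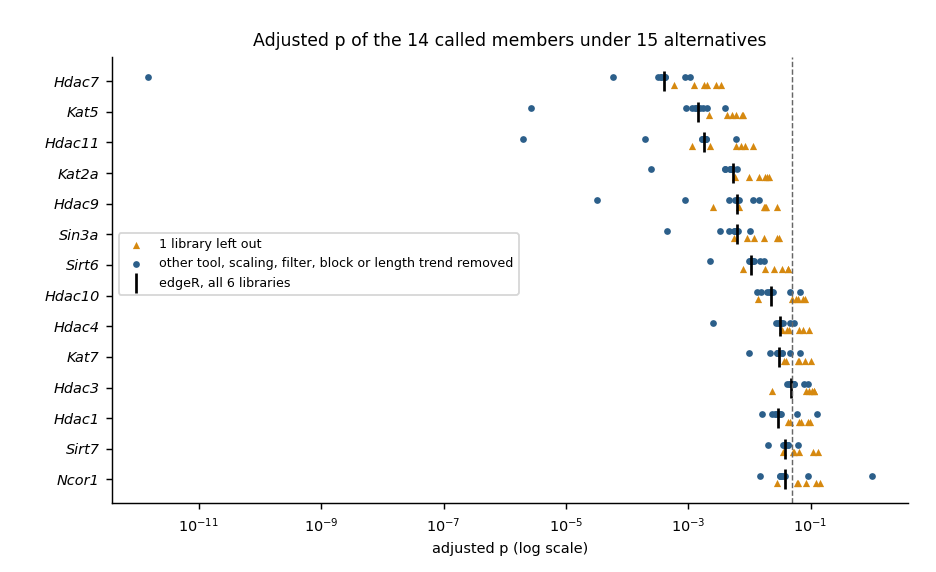
Adjusted p (log axis) of the 14 genes that passed, as a tick for edgeR with all 6 libraries, circles for other tools and settings and triangles for 1 library left out. The dashed line is the threshold of 0.05; the upper 7 genes, from Hdac7 to Sirt6, stay left of it in all 15 alternatives, and the lower 7 cross it.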

How the data were processed

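RNA was measured in 6 libraries of EpCAM-selected primary mouse cholangiocytes, sequenced on the BGISEQ-500 platform per the labels' protocols. The authors deposited raw gene counts for each library, from featureCounts 1.6.0 with GENCODE vM25 gene models (mm10), per the file headers. The command there names no strand or multi-mapping option, so reads of overlapping genes are not split by strand. STAR 2.7.4a, SAMtools 1.12 and DESeq2 1.26.0 are named per the submitters' processing notes. Symbols came from GENCODE vM21 for 55141 IDs, and 260 IDs had none.

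The test was the quasi-likelihood F test of edgeR 4.0.16 in R 4.3.3, with filterByExpr by group (15334 genes), TMM factors, no covariate and a threshold of 0.05 on the Benjamini-Hochberg adjusted p. CPM are TMM-normalised. TPM were computed from the counts and the exonic length in the tables. Molecular identifiers are not mentioned, so floors of 3 reads cover counting error only. Alternatives were DESeq2 1.42.0, limma-voom 3.58.1, RLE and upper-quartile factors, a robust fit, no filter, at least 1 CPM in 3 libraries, a replicate block, a loess length trend removed (span 0.5), each library left out, and a 2-fold minimum. The test was tried on simulated data first.

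Same-numbered libraries deviated together only weakly (r = 0.156, 0.036 and 0.061), and PLD replicate 2 had r = 0.122 with WT replicate 3. The numbers were therefore not taken to pair samples. Replicates within a group differed by more than sampling noise (chi-square per degree of freedom 9.72 to 63.9). Genes named in full were the most abundant of each class and those changed at least 2-fold, and of each partner list the 4 with the smallest p. Members, lists and rules were chosen with earlier results of these data known.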

Additional observations from a re-analysis of the deposited data

How the results depend on the processing

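Over all genes, 4136 rose and 4357 fell with the settings of the report. With 1 library left out and no fold minimum, 3173 to 4183 rose and 3626 to 4562 fell. When at least 2-fold was asked for in all 6 libraries, 1413 rose and 2775 fell. Of the 32 genes, 7 rose and 7 fell with the settings of the report, 4 and 4 with no filter on low counts, 9 and 6 with the length trend removed, and 0 and 1 when at least 2-fold was asked for. Leaving out 1 library gave 3 to 6 that rose and 4 to 7 that fell. The median log2 fold change of the 32 genes, negative in the report, was 0.0494 with the length trend removed. Also positive there were Ep300 (0.323), Crebbp (0.187), Kat6b (0.0494), Hdac8 (0.0493), Hdac5 (0.0662) and Sirt5 (0.0283), none of which passed in the report. What gives rise to the length trend was not tested.

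Other changes of sign concerned genes that did not pass. Hdac8 was at 0.00194 with upper-quartile factors and 0.0202 with no filter. With 1 library left out the log2 fold change ran from -0.0896 to 0.0602 for Ep300, -0.135 to 0.000217 for Kat2b, -0.262 to 0.227 for Hdac8 and -0.202 to 0.128 for Sirt5. With no filter on low counts the median of all genes was -0.09, and with every other setting it was within 0.04 of 0.

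With the replicate number as a block, 3920 genes rose and 4242 fell, and of the 32 genes 5 rose and 6 fell. Not every library correlated best with its own number, as PLD replicate 2 had r = 0.122 with WT replicate 3. Class sums depend on the scale, with log2 ratios of -0.39 to 0.04 in CPM against -0.72 to -0.08 in TPM for the 9 classes other than that of Hdac11. Of the deacetylase complex subunits 12 fell in the report and 7 with the length trend removed. Depth limits Hdac9, which had 3 reads in PLD replicate 1.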
